A study of Mus musculus with 4 samples.

Results

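The 40 genes described here are mRNAs of macrophages and of Kupffer cells, the macrophages that reside in the liver sinusoids. They were taken by name from a list of such genes and not by a rule on their measured values. The list itself was chosen with earlier results of these data known, so the counts below are descriptions. All 40 were measured, among 18194 genes in all. They fall into 5 markers of resident Kupffer cells (Clec4f, Vsig4, Timd4, Cd5l and Marco), 6 genes associated with recruited or inflammatory macrophages (Itgam, Itgax, Trem2, Gpnmb, Lgals3 and Clec7a) and 29 other genes of myeloid cells in general. Kupffer cells are seeded before birth and renew themselves in place. They clear particles, bacteria, complement-coated material and dying cells from portal blood through scavenger, complement and Fc receptors. When the liver is injured, monocytes from the blood can enter it, become macrophages and, with time, take on Kupffer cell markers.

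Liver RNA of 4 genotypes at 5 weeks of age was measured on Affymetrix Mouse 430 v2.0 arrays, with 1 array for each genotype and RNA of 3 mice combined in equal amounts on each array. WT mice carried no Cre transgene. ΔS6 mice (DS6 in the sample labels) were homozygous for a loxP-flanked allele of Rps6, which encodes ribosomal protein S6 of the small ribosomal subunit, and carried Albumin-Cre, which is active in hepatoblasts of the embryonic liver and so deletes the gene in hepatocytes and bile duct cells, in a mosaic and incomplete way. Alb-c-Myc mice (Myc in the labels) carried a c-Myc transgene driven by the albumin promoter with intact Rps6, and ΔS6:c-Myc mice (DS6 Myc) combined that transgene with the Rps6 deletion. The mice were of a mixed hybrid strain and not fasted, and the albumin promoter is not known to be active in macrophages. A piece of liver holds all of its cell types, so that fewer cells of a type and less mRNA in each cell cannot be told apart.

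The values are log2 expression values, and a difference of 1 on this scale is a 2-fold difference. With 1 array of 1 pool for each genotype there is no replicate error, and no test between genotypes was possible. The only spread that these data give is that between probe sets of the same gene, an SD of 0.30 for the log2 ratio of ΔS6 over WT and of 0.25 for ΔS6:c-Myc against Alb-c-Myc, over 4507 genes. It describes the behaviour of probes and not of mice. A run of 4 values of a gene follows the order WT, Alb-c-Myc, ΔS6, ΔS6:c-Myc. An array's background level was set at the 95th percentile of 78 probe sets of olfactory and vomeronasal receptor genes, and it lay between 6.70 in ΔS6 and 6.98 in WT. The 4 arrays had median values of 6.85 to 6.88, and 5 hepatocyte genes had medians of 15.04 to 15.15 on them. Of the 40 genes, 36 were above background on all 4 arrays, Gpnmb on none, and Itgam, Itgax and Ms4a7 on some.

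The labels describe all mice as males, but the WT array had a log2 value of 11.84 for Xist, which coats the inactive X chromosome, against 5.88 to 6.33 on the other arrays, together with a Y-linked Kdm5d value of 7.70 against 8.07 to 8.25. All 11 measured genes of pancreatic acinar cells were at least 2-fold lower in ΔS6 than in WT. With Alb-c-Myc as the reference, 2 of the 11 were at least 2-fold lower, and all 11 had log2 ratios below 0 (-1.44 to -0.37). Counts and medians of the 40 genes and counts of the other lists are therefore also given against Alb-c-Myc. The probe sets of the deleted gene gave a limited check of the labels, since 9 of 11 are shared with its pseudogene Rps6-ps4. These 9 had log2 ratios below 0, of -0.42 to -0.10 in ΔS6 over WT and of -2.37 to -1.25 in ΔS6:c-Myc against Alb-c-Myc. Of the 2 that name Rps6 alone, 1 was lower in both comparisons (-0.79 and -2.48) and 1 was higher (1.47 and 2.59).

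Macrophage mRNAs were higher in ΔS6 liver than in WT liver. All 40 genes had a log2 ratio above 0, and 35 of them were at least 2-fold higher, against 7.24% of all genes. None was at least 2-fold lower, against 2.54% of all genes. The median log2 ratio of the 40 was 2.01 (4.02-fold) with a range of 0.23 to 5.29, and that of all genes was -0.05. With the Alb-c-Myc array as the reference, 35 were again at least 2-fold higher (7.0% of all genes) and 0 were lower (2.23% of all genes), with a median of 2.04. A comparison's share of all genes is the background for the counts of classes and lists given further on too.

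The c-Myc transgene without the Rps6 deletion went with no such difference. In Alb-c-Myc over WT, 0 of the 40 were at least 2-fold higher (0.418% of all genes) and 0 were lower (0.335% of all genes). Few genes of any kind passed 2-fold here, so these counts alone say little about the 40. A log2 ratio above 0 was found in 14 of the 40, against 50.6% of all genes. The median log2 ratio was -0.09, with the scavenger receptor gene Cd163 lowest at -0.67 and Lgals3 highest at 0.69.

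ΔS6:c-Myc liver lay between ΔS6 and the livers with intact Rps6. Over WT, 6 of the 40 were at least 2-fold higher (3.0% of all genes) and 0 were lower (1.8% of all genes), with a median log2 ratio of 0.64. Over Alb-c-Myc, 7 were higher (1.99% of all genes) and 0 were lower (1.36% of all genes), with a median of 0.73. Set directly against ΔS6, 30 of the 40 were lower by 2-fold or more in ΔS6:c-Myc (4.29% of all genes) and 0 were higher (0.769% of all genes), with a median of -1.48.

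**Figure D1:**
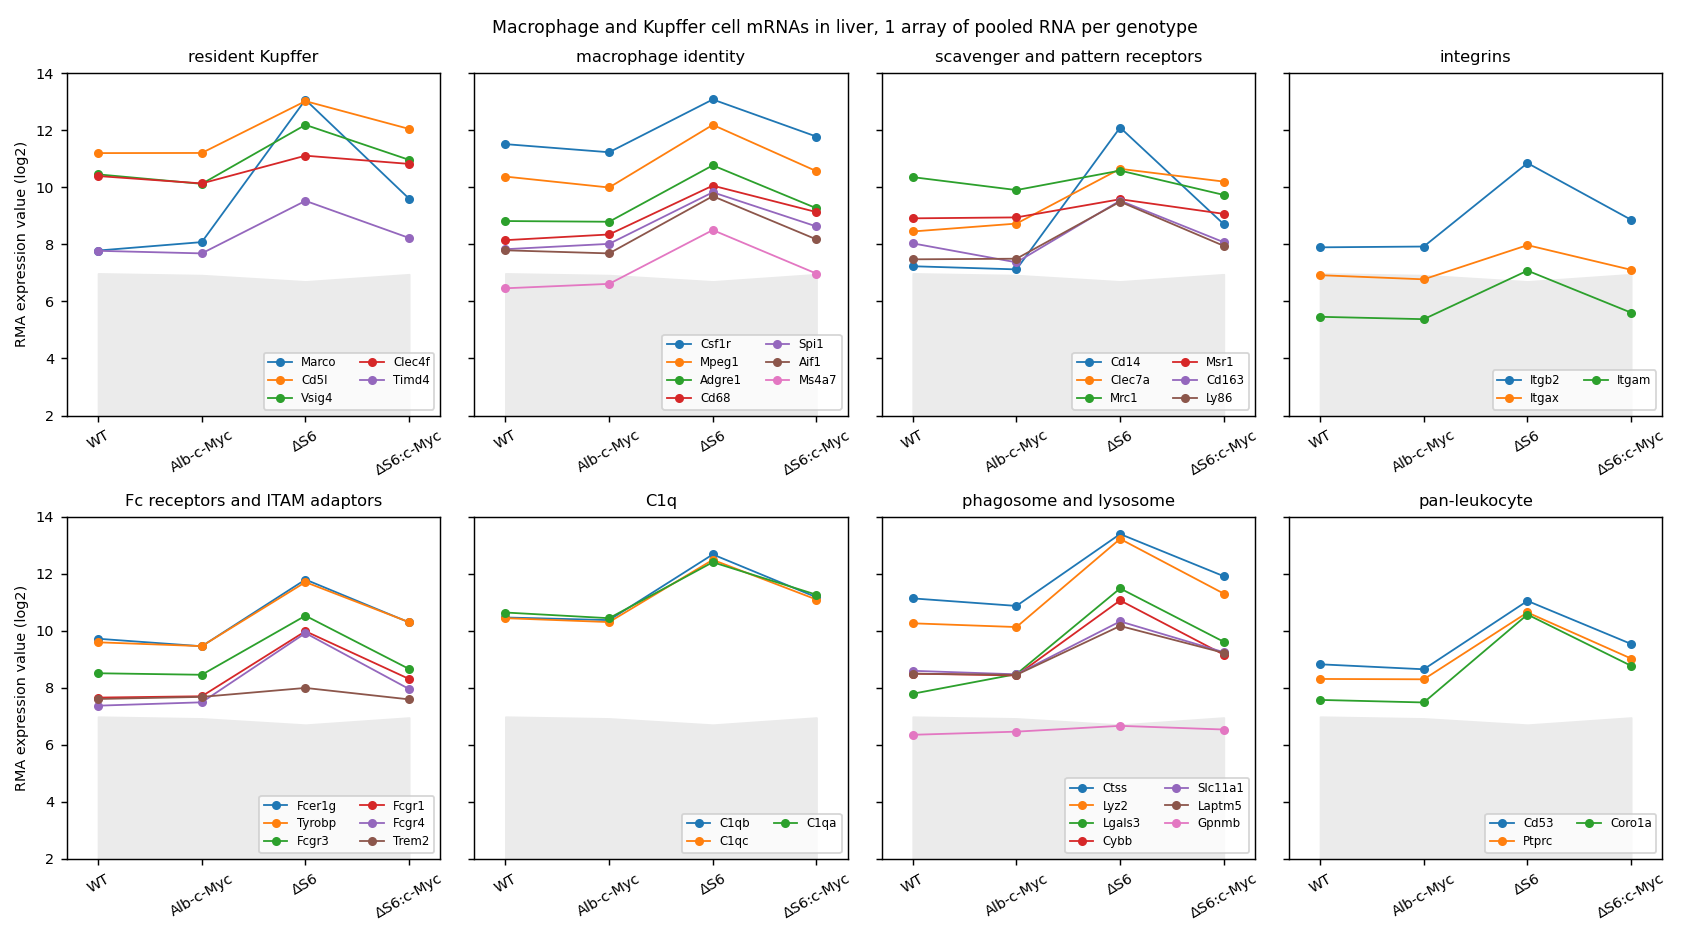
Log2 RMA expression value of each of the 40 genes (vertical axis) on the array of each genotype (horizontal axis), in 8 panels by role, with 1 point for each array, lines joining the points of a gene, and values at or below an array's background level shaded grey. Most lines peak at ΔS6, while those of Mrc1, Trem2 and Gpnmb are nearly flat there (log2 ratios of ΔS6 over WT of 0.23, 0.39 and 0.31).

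Of the 5 resident Kupffer cell markers, 4 were at least 2-fold above WT in ΔS6. Marco, a scavenger receptor of macrophages that binds bacteria and particles, had log2 values of 7.78 in WT, 8.08 in Alb-c-Myc, 13.07 in ΔS6 and 9.60 in ΔS6:c-Myc. ΔS6 stood far above the other arrays, by 5.29 over WT (39.0-fold), which placed Marco at rank 13 of 18194 genes in that comparison. A second probe set of Marco had a ratio of 5.68. Cd5l, also called AIM, a secreted protein of tissue macrophages, had values of 11.20, 11.20, 13.02 and 12.05 on the arrays in this order. WT and Alb-c-Myc did not differ to 2 decimals, and ΔS6:c-Myc lay 0.84 above Alb-c-Myc against 1.82 between ΔS6 and WT.

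Vsig4, the complement receptor CRIg that captures complement-coated particles, had log2 values of 10.45 in WT, 10.12 in Alb-c-Myc, 12.19 in ΔS6 and 10.96 in ΔS6:c-Myc. Timd4, a receptor for phosphatidylserine on dying cells and a marker of long-lived resident macrophages, had 7.77, 7.68, 9.53 and 8.22. Their ratios of ΔS6 over WT were nearly the same, 1.74 for Vsig4 and 1.75 for Timd4, and both were again highest in ΔS6 and next highest in ΔS6:c-Myc.

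Clec4f, a lectin that in mice marks Kupffer cells, stood apart from the other markers. Its log2 values were 10.40 in WT, 10.14 in Alb-c-Myc, 11.11 in ΔS6 and 10.82 in ΔS6:c-Myc, so that its difference stayed under 2-fold in each comparison. The deletion went with a log2 ratio of 0.71 without the c-Myc transgene and of 0.68 with it, and the difference of these, -0.03, was the nearest to 0 of the 40 genes.

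The 6 genes associated with recruited macrophages did not move as a block. Lgals3, which encodes galectin-3, a lectin of activated macrophages that bile duct and other epithelial cells also make, had log2 values of 7.79 in WT, 8.48 in Alb-c-Myc, 11.48 in ΔS6 and 9.61 in ΔS6:c-Myc. Clec7a, which encodes the beta-glucan receptor dectin-1, had 8.45, 8.73, 10.65 and 10.20. It was the gene of this class in which ΔS6:c-Myc came nearest to ΔS6 while differing over 2-fold from both arrays with intact Rps6, by 1.75 from WT and by 1.47 from Alb-c-Myc.

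Itgam, the CD11b integrin chain, was low on this array platform, with values of 5.46 in WT, 5.38 in Alb-c-Myc, 7.08 in ΔS6 and 5.61 in ΔS6:c-Myc. It was above background in ΔS6 alone, so its ratio of 1.62 rests on values at background. Itgax, the CD11c chain, had 6.92, 6.77, 7.97 and 7.11 and was above background on the 2 arrays with the Rps6 deletion.

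The remaining members of this class, both known from lipid-laden and scar-associated macrophages, differed little. Trem2, a lipid-sensing receptor, had log2 values of 7.60 in WT, 7.68 in Alb-c-Myc, 7.99 in ΔS6 and 7.59 in ΔS6:c-Myc. Its ratio of 0.39 for ΔS6 over WT was not shared by its other probe set, which had -0.44. Gpnmb, a glycoprotein of such macrophages, had 6.35, 6.46, 6.66 and 6.53, none of them above background, which leaves its level undetermined.

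Of the general myeloid genes, 27 of 29 were at least 2-fold above WT in ΔS6, with ratios from 0.23 to 4.86. Among the genes that define macrophage identity, 7 of 7 were higher, and their ratios covered a narrow range from 1.57 to 2.04. Csf1r, the receptor for the growth factors on which macrophages depend, had the smallest ratio, with log2 values of 11.51 in WT, 11.23 in Alb-c-Myc, 13.08 in ΔS6 and 11.78 in ΔS6:c-Myc. Ms4a7, a membrane protein of macrophages, had the largest, with 6.46, 6.62, 8.50 and 6.98, and was not above background in WT or Alb-c-Myc. Between these lay Mpeg1, the pore-forming perforin-2 (1.81), Aif1, also called Iba1 (1.90), the lysosomal glycoprotein gene Cd68 (1.91), Adgre1, whose product is the usual surface marker of mouse macrophages (1.95), and Spi1, which encodes PU.1, the transcription factor that directs myeloid differentiation (2.00). In ΔS6:c-Myc against Alb-c-Myc, the ratios of the 7 ranged from 0.36 to 0.79, and 0 reached 2-fold.

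PU.1 is known to bind purine-rich promoter elements of myeloid genes, so the members' promoters were searched for its core GAGGAAGT on either strand (ACTTCCTC on the other), with no other motif searched. Promoters from RefSeq (GRCm38.p6, 250 bases before to 50 after a gene's start) were matched for 32 of the 40 genes. The letters were found in 4 of these 32 (12.5%), namely Fcgr4, C1qc, Ctss and Cd53, against 997 of 27025 genes with a promoter (3.69%). The matches are descriptions of letters and were not tested as binding sites. The stretches around the 4 matches are shown with the motif in capitals on the strand of the gene. The 4 genes were at least 4-fold higher in ΔS6 over WT, as were 20 of the 40 (1.98% of all genes). Those of Marco and Clec4f, the resident markers with the largest and smallest ratios, are shown beside them as stretches without a match.
Fcgr4 (chr1:171018826-171018925, plus strand): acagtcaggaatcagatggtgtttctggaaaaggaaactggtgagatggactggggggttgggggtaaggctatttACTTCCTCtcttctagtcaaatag
C1qc (chr4:136893050-136893149, minus strand): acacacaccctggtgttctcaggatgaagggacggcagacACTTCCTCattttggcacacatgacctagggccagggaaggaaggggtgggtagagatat
Ctss (chr3:95526773-95526802, plus strand): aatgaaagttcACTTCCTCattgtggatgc
Cd53 (chr3:106790125-106790154, minus strand): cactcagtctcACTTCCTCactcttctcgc
Marco (chr1:120505025-120505124, minus strand): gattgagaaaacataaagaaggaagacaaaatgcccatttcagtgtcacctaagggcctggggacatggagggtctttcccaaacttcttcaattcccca
Clec4f (chr6:83656117-83656216, minus strand): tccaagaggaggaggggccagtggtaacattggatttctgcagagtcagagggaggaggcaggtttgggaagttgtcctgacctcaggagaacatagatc
In Fcgr4 the match began 24 bases before the annotated start, in C1qc 195 bases before it and in Ctss 2 bases before it, whereas in Cd53 it began 6 bases after it. All 4 matches lay on the strand opposite to the gene.

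Scavenger and pattern recognition receptors varied widely. Cd14, the co-receptor that hands lipopolysaccharide to Toll-like receptor 4, had log2 values of 7.23 in WT, 7.12 in Alb-c-Myc, 12.10 in ΔS6 and 8.71 in ΔS6:c-Myc. ΔS6 again stood far from the rest, by 4.86 over WT (29.1-fold, rank 22 of 18194 genes). Injured hepatocytes are also known to make Cd14. Ly86, which encodes MD-1, the partner of an LPS-response modulator of the Toll-like receptor family, had 7.48, 7.50, 9.50 and 7.95. Cd163, the receptor that takes up haemoglobin-haptoglobin complexes, went from 8.04 in WT to 9.53 in ΔS6.

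The mannose receptor and the class A scavenger receptor did not follow Cd14. Mrc1, the mannose receptor, which liver sinusoidal endothelial cells share with macrophages, had log2 values of 10.36 in WT, 9.90 in Alb-c-Myc, 10.59 in ΔS6 and 9.73 in ΔS6:c-Myc. Both arrays with the transgene were below both without it, and Mrc1 had the smallest ratio of ΔS6 over WT of the 40 genes, 0.23. Msr1, the class A scavenger receptor, had ratios of 0.67 in ΔS6 over WT and 0.12 in ΔS6:c-Myc against Alb-c-Myc, and its other probe sets above background were also below 2-fold.

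The genes of Fc receptors and of the signalling adaptors that pair with them were higher together. Fcer1g, the Fc receptor gamma chain, had log2 values of 9.72 in WT, 9.45 in Alb-c-Myc, 11.79 in ΔS6 and 10.29 in ΔS6:c-Myc. Tyrobp, which encodes DAP12, the adaptor of Trem2 and other receptors, had 9.59, 9.46, 11.70 and 10.30. These adaptors therefore had nearly equal ratios, 2.08 and 2.11 in ΔS6 over WT and 0.84 each in ΔS6:c-Myc against Alb-c-Myc.

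The receptors themselves showed a smaller residual difference when the transgene was present. Fcgr4, a receptor for IgG of the mouse subclasses that activate phagocytes, had values of 7.37 in WT, 7.49 in Alb-c-Myc, 9.91 in ΔS6 and 7.95 in ΔS6:c-Myc. Fcgr3, the low-affinity IgG receptor, had 8.51, 8.45, 10.52 and 8.65, and Fcgr1, the high-affinity receptor, had 7.65, 7.70, 9.98 and 8.31. All 3 were at least 4-fold above WT in ΔS6, whereas in ΔS6:c-Myc against Alb-c-Myc their ratios were 0.47, 0.20 and 0.61. A second probe set of Fcgr1, also above background, had a ratio of 0.36 in ΔS6 over WT, so the size for this gene depends on the probe set.

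The integrin chain Itgb2, which encodes CD18, the partner of CD11b and CD11c on leukocytes, had log2 values of 7.90 in WT, 7.92 in Alb-c-Myc, 10.85 in ΔS6 and 8.86 in ΔS6:c-Myc. It had a ratio of 2.95 in ΔS6 over WT, larger than those of its partner chains Itgam and Itgax, which were above background on some arrays only.

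The 3 chains of C1q, the recognition protein of the classical complement pathway that macrophages secrete, kept close together. C1qa had log2 values of 10.63 in WT, 10.44 in Alb-c-Myc, 12.40 in ΔS6 and 11.26 in ΔS6:c-Myc. C1qb had 10.46, 10.37, 12.67 and 11.17, and C1qc had 10.44, 10.30, 12.48 and 11.09. The ratios of the 3 genes lay between 1.76 and 2.21 in ΔS6 over WT and between 0.79 and 0.82 in ΔS6:c-Myc against Alb-c-Myc.

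Genes of the phagosome and lysosome included some of the larger differences. Lyz2, which encodes the lysozyme of myeloid cells, had log2 values of 10.26 in WT, 10.13 in Alb-c-Myc, 13.22 in ΔS6 and 11.30 in ΔS6:c-Myc. Ctss, the cysteine protease cathepsin S of antigen-presenting cells, had 11.13, 10.87, 13.39 and 11.91, and Cybb, the catalytic subunit of the phagocyte NADPH oxidase, had 8.49, 8.43, 11.06 and 9.16. Lyz2 and Ctss were still at least 2-fold above Alb-c-Myc in ΔS6:c-Myc (1.17 and 1.04), while Cybb was not (0.73) with the probe set used. The 2 other probe sets of Cybb had 1.02 and 1.12 there, so this call depends on the probe set. Slc11a1, the phagosomal metal transporter NRAMP1, had ratios of 1.73 in ΔS6 over WT and 0.78 in ΔS6:c-Myc against Alb-c-Myc. Laptm5, a lysosomal membrane protein of leukocytes, had 1.67 in ΔS6 over WT with the probe set used, from 1.53 to 2.19 in 2 others and -0.49 in another that was above background.

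The 3 genes common to all leukocytes were also higher. Ptprc, which encodes CD45, had log2 values of 8.31 in WT, 8.29 in Alb-c-Myc, 10.64 in ΔS6 and 9.02 in ΔS6:c-Myc. Cd53, which encodes a tetraspanin, had 8.82, 8.64, 11.04 and 9.53, and Coro1a, which encodes the actin-binding protein coronin-1A, had 7.57, 7.48, 10.56 and 8.77. ΔS6 was highest and ΔS6:c-Myc next for each, and Coro1a was the one that passed 2-fold in ΔS6:c-Myc against both WT and Alb-c-Myc with the probe set used (1.20 and 1.28). Its other probe set above background had 0.58 and 0.78, both under 2-fold.

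The ratios of the 3 classes overlapped. In ΔS6 over WT the median log2 ratio was 1.75 for the resident markers, 1.34 for the recruited-macrophage genes and 2.04 for the general myeloid genes. With Alb-c-Myc as the reference the medians were 1.84, 1.45 and 2.18 in the same order. The resident median lay 0.27 below that of the other 35 genes in ΔS6 over WT, a difference for which these arrays give no error. In ΔS6:c-Myc against Alb-c-Myc the class medians were 0.84, 0.28 and 0.73, and the resident median lay 0.11 above that of the others. Over WT, it lay 0.14 below them, and 0.06 above them when all probe sets of a gene were averaged, so no order of the classes was read from that comparison. Within the resident class, ratios of ΔS6 over WT ran from 0.71 for Clec4f to 5.29 for Marco, a wider range than the distance between any of the class medians.

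**Figure D2:**
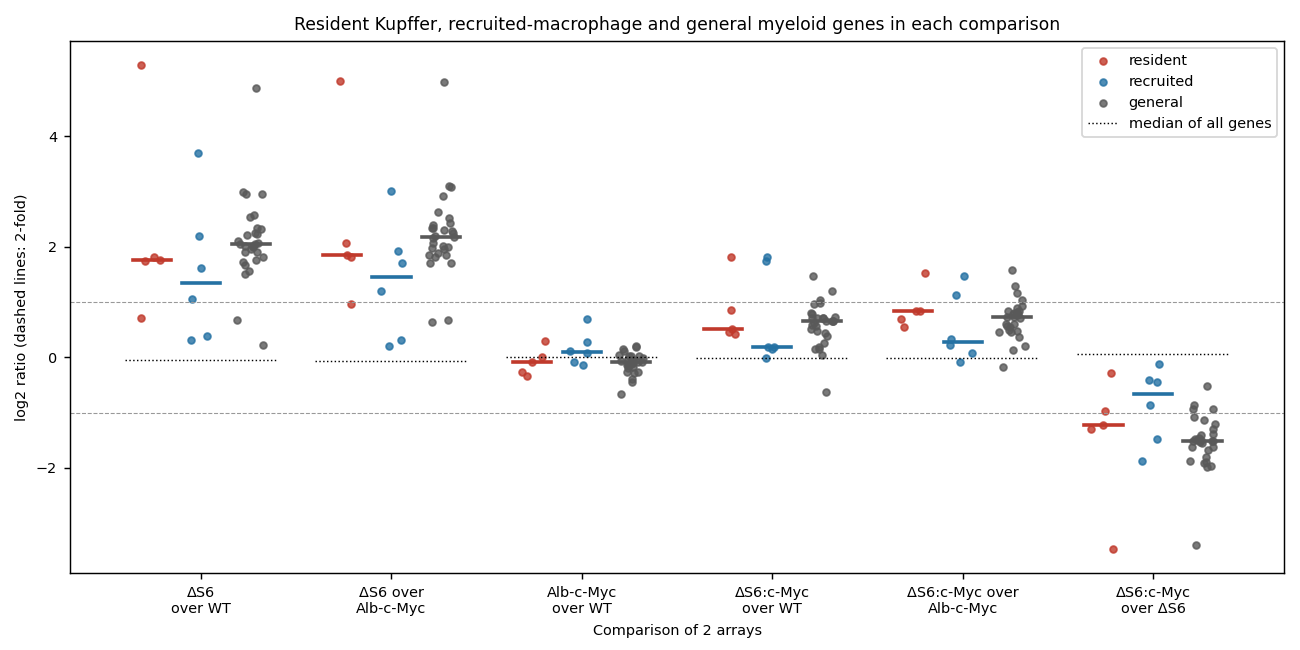
Log2 ratio (vertical axis) of each of the 40 genes in 6 comparisons of 2 arrays (horizontal axis), with points for genes of the resident, recruited and general classes, a bar at each class median, dashed lines at 2-fold and a dotted line at the median of all 18194 genes. The classes overlap in each comparison, with medians of 1.75, 1.34 and 2.04 in ΔS6 over WT, and the points of Alb-c-Myc over WT lie around 0.

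The Rps6 deletion went with a smaller difference in the presence of the c-Myc transgene for all 40 genes. This compares the log2 ratio of ΔS6:c-Myc against Alb-c-Myc with that of ΔS6 over WT, which share no array. The first minus the second had a median of -1.26 over the 40 genes against 0.03 over all genes, and was below 0 for each of the 40. It was most negative for Marco (-3.77) and Cd14 (-3.28), next for Lgals3 (-2.56), and nearest to 0 for Clec4f (-0.03), Gpnmb (-0.24) and Mrc1 (-0.40). The difference was not tested, since each ratio rests on 2 arrays. Between probe sets of the same gene it had an SD of 0.24, which the values of Clec4f and Gpnmb did not exceed to 2 decimals. Rps6 mRNA itself was not equally lower in the 2 comparisons. Its probe sets shared with Rps6-ps4 had -0.42 to -0.10 in ΔS6 over WT and -2.37 to -1.25 in ΔS6:c-Myc against Alb-c-Myc.

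The genes that stayed at least 2-fold above Alb-c-Myc in ΔS6:c-Myc were Cd14 (1.58), Marco (1.52), Clec7a (1.47), Coro1a (1.28), Lyz2 (1.17), Lgals3 (1.13) and Ctss (1.04). With the probe sets used, the first 6 were also at least 2-fold above WT, with ratios from 1.04 for Lyz2 to 1.82 for Marco and for Lgals3, while Ctss had 0.78. Of the 7 genes, 5 were also among the 6 with the largest ratios in ΔS6 over WT, and these values come from different arrays. The sixth there, Itgb2, was just inside 2-fold in ΔS6:c-Myc, with 0.94 over Alb-c-Myc and 0.97 over WT.

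**Figure D3:**
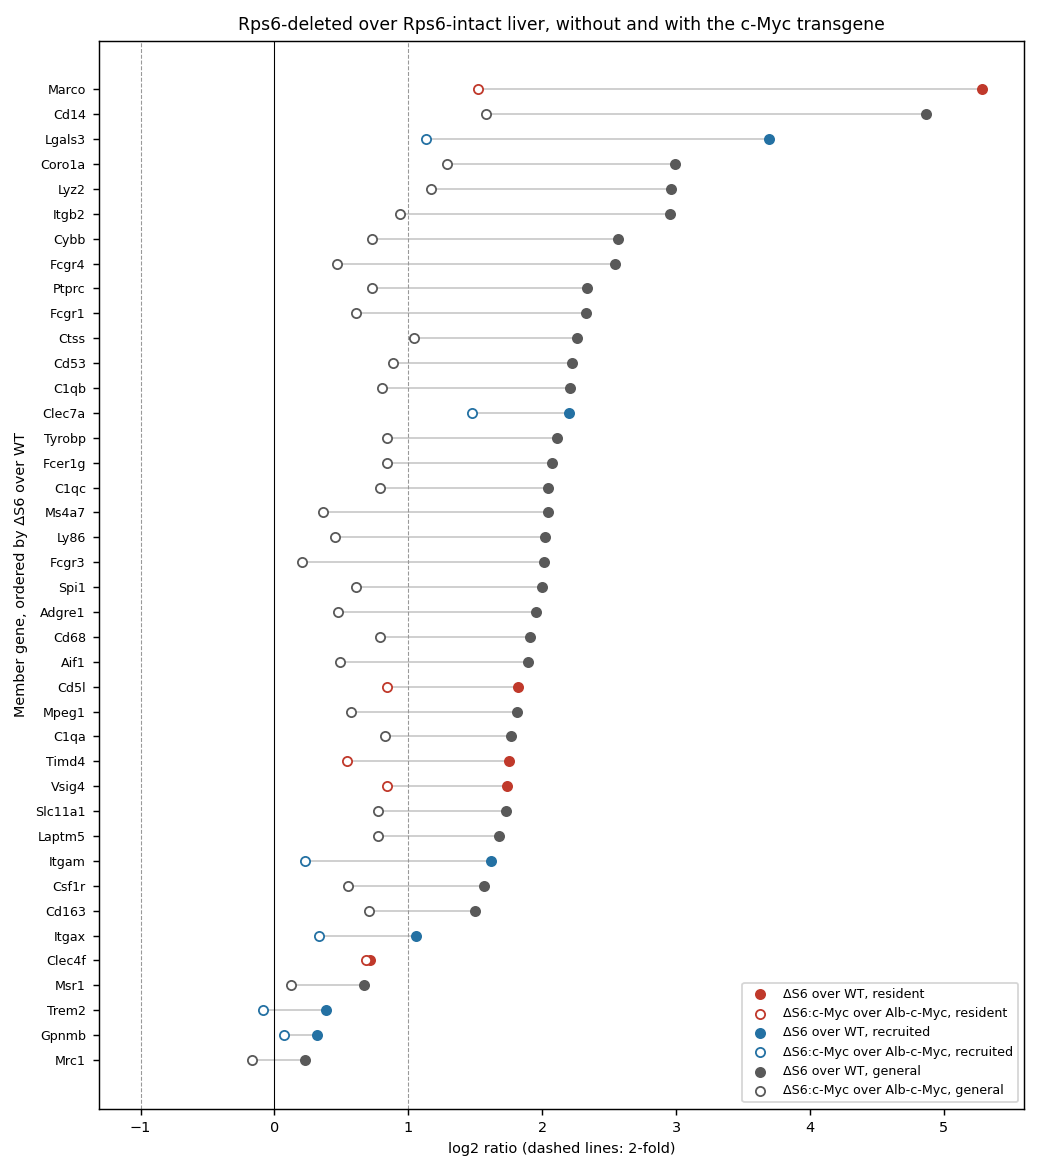
Log2 ratio of the arrays with over those without the Rps6 deletion (horizontal axis) for each of the 40 genes (vertical axis, ordered by ΔS6 over WT), with filled points for ΔS6 over WT, open points for ΔS6:c-Myc against Alb-c-Myc, grey lines joining the points of a gene, colours for the 3 classes and dashed lines at 2-fold. Each open point lies left of its filled point, by a difference of -3.77 for Marco and of -0.03 for Clec4f.

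Genes with several probe sets gave a view of how far single values can be trusted. The 40 genes had 62 probe sets, and 13 genes had more than 1. Of the 22 probe sets not used, 15 were above background on at least 1 array, and 10 of these were also at least 2-fold above WT in ΔS6. In 2 of the 15, those of Trem2 and Laptm5 named above, the ratio was below 0. The other 7 were not above background on any array, among them those of Cd53, Ms4a7 and Ptprc, whose ratios were -0.03, 0.00 and -0.09. For these genes a mean over probe sets is lower than the value given here.

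**Figure D4:**
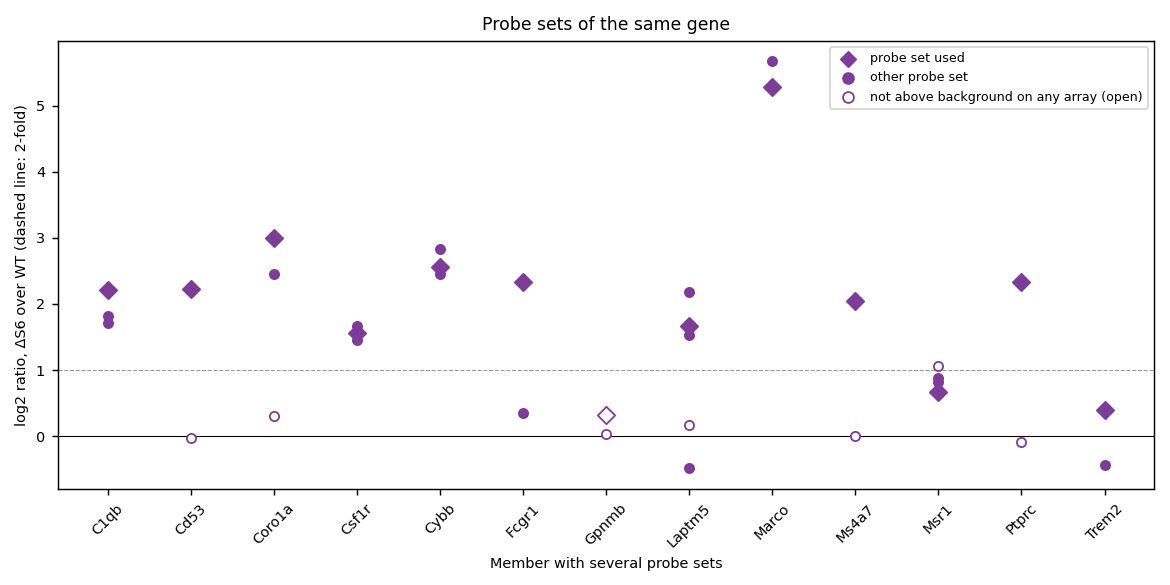
Log2 ratio of ΔS6 over WT (vertical axis, dashed line at 2-fold) for each probe set of the 13 genes that have more than 1 (horizontal axis), with diamonds for the probe set used, circles for the others and open symbols for probe sets not above background on any array. Both probe sets of Marco lie above 5 (5.29 and 5.68), while those of Laptm5 and Trem2 fall on both sides of 0.

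Markers of other cell types differed along with the macrophage genes, and their part in these results was not tested. Of 12 neutrophil genes, 8 were at least 2-fold above WT in ΔS6 (median log2 ratio 2.44), led by the calgranulin genes S100a9 (5.90) and S100a8 (5.87) and by Pglyrp1 (4.82), while Elane, the elastase of immature neutrophils, was not above background. The summed value of the 12 on the linear scale was 25500 in ΔS6 and 1090 to 1210 on the other arrays, and 10 of the 12 were above background in ΔS6 against 3 or 4 elsewhere. In ΔS6:c-Myc against Alb-c-Myc, 0 of the 12 neutrophil genes were at least 2-fold higher (median 0.10), where the macrophage genes had a median of 0.73. Many of the 40 genes are also used by other cells, so no count is free of shared genes. Without 9 of them that other leukocytes, endothelium or epithelium use (Itgam, Itgb2, Lyz2, Lgals3, Cd14, Mrc1, Ptprc, Cd53 and Coro1a), 27 of the remaining 31 were at least 2-fold higher in ΔS6 over WT, with a median of 1.91, and 3 of 31 in ΔS6:c-Myc against Alb-c-Myc, with a median of 0.68. Leaving out also 9 that neutrophils express strongly (Cybb, Fcer1g, Tyrobp, Fcgr3, Fcgr4, Laptm5, Clec7a, Spi1 and Slc11a1) left 22, of which 18 were at least 2-fold higher in ΔS6 over WT (median 1.82) and 2 in ΔS6:c-Myc against Alb-c-Myc (median 0.59).

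Monocyte genes showed a like pattern at lower values. Of 7, 5 were at least 2-fold above WT in ΔS6 (median 1.62) and 0 in ΔS6:c-Myc against Alb-c-Myc (median -0.04). Chil3, a chitinase-like protein of myeloid cells, had log2 values of 5.22 in WT, 5.22 in Alb-c-Myc, 9.95 in ΔS6 and 5.46 in ΔS6:c-Myc, and was above background in ΔS6 alone. The summed linear value of the 7 was 6310 in ΔS6 and 1160 to 1920 on the other arrays, and 5 were above background in ΔS6 against 1 on each of the others. That 1 was Plac8, with log2 values of 9.59 in WT, 9.75 in Alb-c-Myc, 12.17 in ΔS6 and 10.54 in ΔS6:c-Myc. Its ratios were 2.58 in ΔS6 over WT and 0.79 in ΔS6:c-Myc against Alb-c-Myc. The median of -0.04 therefore rests mostly on values at background. Ccr2, the receptor of inflammatory monocytes, named here after its values were seen, was not above background on any array.

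Genes of bile duct cells and stellate cells were also higher in ΔS6. All 5 bile duct genes were at least 2-fold above WT (median 4.10), with a summed linear value of 11100 in ΔS6 against 512 to 857 elsewhere. Of 8 stellate cell genes, 5 were higher (median 1.37), with sums of 32400 in ΔS6 and 12700 to 17800 elsewhere, and Col1a1, which encodes a chain of type I collagen, had the largest ratio, 2.49.

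Lymphocyte and dendritic cell markers did not move with the macrophage genes. Of 10 T and NK cell genes, 6 B cell genes and 9 dendritic cell genes, 0 were at least 2-fold higher or lower in ΔS6 over WT, with medians of 0.13, -0.14 and 0.13. Many of these lay at background, since 5, 2 and 5 of them, in this order, were above it on at least 1 array. Of 9 genes listed for liver sinusoidal endothelial cells, which line the vessels that Kupffer cells sit in, 1 was higher (Clec1b, 1.11). The median of the 9 was 0.12. Which cells gave the Clec1b difference was not tested. The 5 hepatocyte genes, with log2 medians of 15.04 to 15.15 on the arrays, differed by -0.10 to 0.12. They do not stand for all hepatocyte genes, since the authors report cytochrome P450 and major urinary protein mRNAs as lower in ΔS6.

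Set against Alb-c-Myc, the genes at least 2-fold higher in ΔS6 were 9 of 12 for neutrophils, 4 of 7 for monocytes and 6 of 8 for stellate cells, with medians of 2.40, 1.37 and 1.38. The counts of bile duct, endothelial, T and NK, B and dendritic cell genes were the same as with WT.

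**Figure D5:**
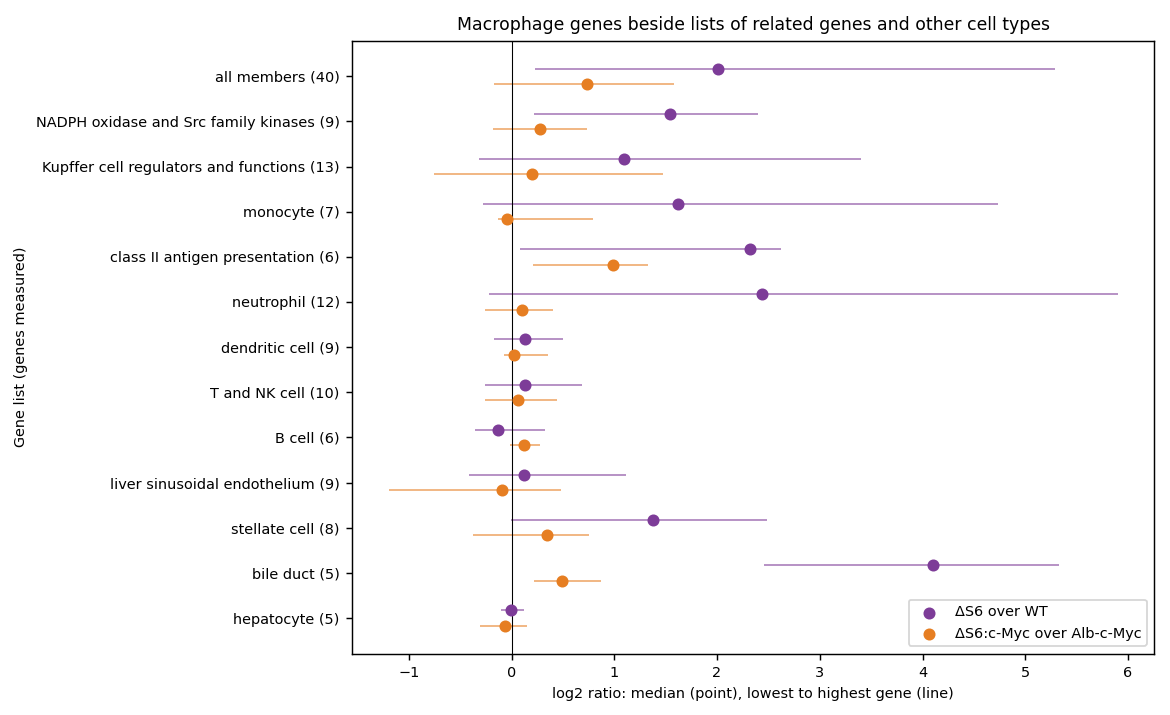
Median log2 ratio (point) and range from the lowest to the highest gene (line) on the horizontal axis for the 40 macrophage genes and for lists of related genes and other cell types (vertical axis, number of genes measured in brackets), in purple for ΔS6 over WT and in orange for ΔS6:c-Myc against Alb-c-Myc. Neutrophil genes have a median of 2.44 in purple and 0.10 in orange, macrophage genes 2.01 and 0.73.

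Other genes of macrophage function were described from lists of the same pathways. Of 6 genes of class II antigen presentation, 5 were at least 2-fold above WT in ΔS6 (median 2.32) and 3 in ΔS6:c-Myc against Alb-c-Myc (median 0.99). They included H2-Ab1, a chain of a class II molecule (2.62 and 1.32 in the same comparisons). Another was the invariant chain gene Cd74 (2.36 and 1.06). Ciita, the transactivator of class II genes, had 0.08 and 0.21. It lay close to background on the arrays with intact Rps6, with 7.05 in Alb-c-Myc beside a background level of 6.92. Its ratios therefore do not show whether Ciita mRNA differed. Of 9 genes of the NADPH oxidase and the kinases and exchange factors upstream of it, 5 were higher in ΔS6 over WT (median 1.55) and 0 in ΔS6:c-Myc against Alb-c-Myc (median 0.27). The oxidase subunit gene Cyba, the partner of Cybb, had 2.40 and 0.73, close to the 2.57 and 0.73 of the Cybb probe set used. With Alb-c-Myc as the reference for ΔS6, 5 class II genes and 6 genes of the oxidase list were at least 2-fold higher.

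The growth factor gene Csf1 was not higher along with its receptor gene Csf1r. Of 8 genes of colony-stimulating factors and their receptors, other than Csf1r, 3 were at least 2-fold above WT in ΔS6 (median 0.38), and all 3 encode receptor chains for GM-CSF and related cytokines, Csf2rb2 (2.86), Csf2ra (2.24) and Csf2rb (1.95). Csf1 and Il34, the ligands of the Csf1r receptor, named here after their values were seen, had ratios of -0.35 and -0.14. Il34 and Csf2rb2 were above background in ΔS6 alone, so their ratios rest on values at background. Of 15 Toll-like receptors and co-receptors, Tlr2, Tlr1 and Tlr13 were at least 2-fold higher (2.13, 1.94 and 1.14) and the median was 0.31, so that Cd14 differed by more than any gene of that list.

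Of 13 further genes that regulate Kupffer cells or serve their functions, 7 were at least 2-fold above WT in ΔS6 (median 1.10) and 3 in ΔS6:c-Myc against Alb-c-Myc (median 0.20). The 3 were Id1, an inhibitor of helix-loop-helix factors (3.40 and 1.39 in the same comparisons), Hmox1, the haem-degrading enzyme haem oxygenase 1 (2.77 and 1.25), and the fatty acid binding protein gene Fabp7 (1.89 and 1.48). Between WT and Alb-c-Myc each differed by 0.13 or less to 2 decimals. Fabp7 had 6.98 in WT and 6.85 in Alb-c-Myc, beside background levels of 6.98 and 6.92, so its ratios rest on values at background. Complement C6, which hepatocytes also make, had -0.08 and -0.76. The other genes within 2-fold in ΔS6 over WT were named after their values were seen. They were Nr1h3 (-0.32), Slc40a1 (0.20), Maf (0.35), Irf7 (0.36) and Cdh5 (0.79). Which liver cells gave the differences of this list was not tested. The counts of this list, of the colony-stimulating factor list and of the Toll-like receptor list were the same (7, 3 and 3) with Alb-c-Myc as the reference for ΔS6.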

How the data were processed

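Total liver RNA of 3 mice for each genotype was pooled and hybridized to Affymetrix Mouse 430 v2.0 arrays, 1 for each genotype. The deposited values are log2 values, after RMA and then quantile normalization by the authors. The submitters' processing notes also name affy, with no version given. RMA pulls the arrays to 1 distribution, and a probe set read at background gives a log2 ratio nearer to 0.

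Of 45101 probe sets, 34958 have 1 gene symbol in the platform annotation, 932 have several and 9211 have none, and only the first were used. Of the probe sets of a gene, the one highest on average was used. Differences of log2 values were computed for 6 pairs of arrays. Counts of the 40 genes past a threshold stand beside the share of all 18194 genes past it. With 1 array for each genotype no p-value was computed.

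The members and the lists of other genes were chosen with earlier results of these data known. Levels on all 4 arrays are given for the resident and recruited-macrophage genes and, in each other role, for members at least 4-fold different between ΔS6 and WT and the member with the smallest difference. Of each other list, at most the 3 largest and the smallest ratios of ΔS6 over WT were to be named, with exceptions stated. Protein sequence features that had been planned were not analysed here. Alternatives were averaging the probe sets of a gene, leaving out the probe sets with _x_at or _s_at names, centring on the median, repeated quantile normalization, a filter on dim genes, thresholds of 1.5-fold and 4-fold, and Alb-c-Myc as the reference. The counting step was tested on simulated data. Python 3.11.15, numpy 2.4.6, pandas 2.3.3 and matplotlib 3.10.9 were used.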

Additional observations from a re-analysis of the deposited data

Results flagged for a closer look

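In 2 of the 40 genes the Rps6 deletion went with opposite directions without and with the c-Myc transgene. Mrc1, the mannose receptor gene, had a log2 ratio of 0.23 in ΔS6 over WT and of -0.17 in ΔS6:c-Myc against Alb-c-Myc. Trem2 had 0.39 and -0.087. Each ratio is between single arrays and the difference was not tested. Except for the 0.39 of Trem2, which its other probe set turned to -0.44, these ratios are smaller than the SD between probe sets of the same gene (0.30 and 0.25 in the 2 comparisons).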

How the results depend on the processing

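Of 180 recomputed medians and counts, 146 kept their sign and moved by less than 0.1 on the log2 scale or, for counts, by less than 1.5 times. Some of these could hardly change. Centring shifts all genes of a comparison alike, so the resident minus the other median stays as it was. The filter on dim genes kept 39 of the 40 genes. At a threshold of 1.5-fold, Alb-c-Myc over WT had 1 gene higher (1.59% of all genes) and 1 lower (0.951%), ΔS6:c-Myc over WT had 21 higher (8.97%) and 1 lower (5.2%), and ΔS6:c-Myc against Alb-c-Myc had 25 higher (6.82%). At 4-fold, 20 were higher in ΔS6 over WT (1.98% of all genes), 0 in ΔS6:c-Myc over WT (0.368%) and 0 in ΔS6:c-Myc against Alb-c-Myc (0.286%), and 2 were lower in ΔS6:c-Myc over ΔS6 (0.841%). Averaging the probe sets of a gene moved the median of the 40 to 1.86 in ΔS6 over WT, 0.46 in ΔS6:c-Myc over WT and -1.30 in ΔS6:c-Myc over ΔS6, and repeated quantile normalization moved the first to 1.90. The resident minus the other median was unstable. It turned from -0.14 to 0.06 in ΔS6:c-Myc over WT with probe sets averaged and to 0.11 with Alb-c-Myc as the reference, and averaging moved it to -0.16 in ΔS6 over WT, 0.17 in ΔS6:c-Myc over ΔS6 and 0.27 in ΔS6:c-Myc against Alb-c-Myc. Without Marco it was 0.40 in ΔS6:c-Myc over ΔS6. Without the 9 genes shared with other cell types it was 0.23 in ΔS6:c-Myc against Alb-c-Myc, and 2 genes were at least 2-fold higher in ΔS6:c-Myc over WT and 3 over Alb-c-Myc. With 22 genes left, after leaving out 9 more that neutrophils express strongly, 18 were higher in ΔS6 over WT, 1 in ΔS6:c-Myc over WT and 2 over Alb-c-Myc, and 15 were lower in ΔS6:c-Myc over ΔS6, with fewer genes to count. Their medians in the same order were 1.82, 0.46, 0.59 and -1.35, and the resident minus the other median was -0.15 in ΔS6 over WT, 0.0015 in Alb-c-Myc over WT, 0.061 in ΔS6:c-Myc over WT and 0.29 in ΔS6:c-Myc against Alb-c-Myc. These 3 ways of leaving out genes were chosen after seeing the data. Laptm5 turned to -0.49 in ΔS6 over WT without the probe sets with _x_at or _s_at names, since another of its probe sets then stood for the gene. Centring and repeated quantile normalization moved 0 of 200 single-gene ratios by more than the SD between probe sets and averaging probe sets moved 24. Centring could hardly move any, since the array medians lay between 6.85 and 6.88. Averaging could move only the ratios of the 13 genes with more than 1 probe set. No array could be left out and no paired analysis was possible because each genotype has 1 array. A pool of 3 mice hides their spread, and values near background hide the size of a difference.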

Other observations

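Genes for the clearance of dying cells and for lysosomal function were also measured. Of 10 genes of other complement receptors and of efferocytosis, the uptake of dying cells, 5 were at least 2-fold above WT in ΔS6 (median log2 ratio 0.78) and 1 in ΔS6:c-Myc against Alb-c-Myc (median 0.35). Mfge8, which bridges phosphatidylserine to phagocytes, had ratios of 2.37 and 0.45 in these comparisons. Axl, a receptor tyrosine kinase of phagocytes, had 1.95 and 1.03, and its ligand Gas6 had 1.73 and 0.18. The related receptor gene Tyro3 had 0.02 and 0.23, but was not above background in WT or Alb-c-Myc. Mertk, a further receptor gene of the list, named after its values were seen, had 0.22 and 0.30. Which liver cells gave these differences was not tested.

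Of 13 lysosomal enzymes and genes of lipid-laden macrophages, 2 were at least 2-fold above WT in ΔS6, the tetraspanin gene Cd9 (2.20) and Lpl, which encodes lipoprotein lipase (1.19). The median was 0.45, and 0 were higher in ΔS6:c-Myc against Alb-c-Myc (median 0.12). With Alb-c-Myc as the reference for ΔS6, 3 of the 13 were higher, and the counts of the efferocytosis and erythroid lists were the same as with WT. Most genes of this list are also used by other liver cells. Of 5 erythroid genes, 2 were at least 2-fold lower in ΔS6 than in WT, the transcription factor gene Klf1 (-1.75) and Alas2, the first enzyme of haem synthesis in red cell precursors (-1.15).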
